A study of Rattus norvegicus with 300 samples.

Results

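The cytosolic ribosomal protein genes of the rat brain were examined across 10 brain regions and 6 oral treatments. A gene was a member when its symbol was Rpl or Rps followed by a number and at most a letter a, l or x with a further number, or was Rplp0, Rplp1, Rplp2 or Rpsa. Symbols of pseudogenes ending in -ps with a number were left out. This rule found 81 of the 17337 genes in the count table, of which 49 encode proteins of the large subunit and 32 proteins of the small subunit. Rpl36al, Rps4y2, Rpl37a-ps1 and Rps4x-ps1 were in the table and fell outside the rule. All 81 genes passed the filter on low counts in the comparisons over all regions, where 15427 genes were tested.

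Ribosomal proteins are made in nearly equal amounts and, with ribosomal RNA, build the large subunit, which joins amino acids, and the small subunit, which reads the mRNA. Their mRNAs belong to the TOP class, which starts with a C followed by a run of pyrimidines, and mTORC1 controls how often these mRNAs are translated. In neurons, ribosomal protein mRNAs are also carried into axons and dendrites, and protein synthesis there is needed for lasting changes of synapses.

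The study gave male Long Evans rats, 60 days old, antidepressants or probiotics in drinking water for 3 weeks and sequenced RNA from brain punches. The groups were FT (13 mg/kg/day), Bupropion (dosed at 15 mg/kg/day), Desipramine (given at 7.5 mg/kg/day), Probiotics, Maltodextrin at 10 g/L, and Control, which drank water. The labels do not spell out FT; of the listed drugs, fluoxetine alone is taken by no other group name. Each of the 60 groups of region and treatment had 5 replicate libraries, making 300 libraries with between 198260 and 18310687 counts and a median of 9232563. The regions are named here as the labels write them, which is NACShell, PLC, ILC, BLA, mPOA, dorDG, venDG, CGC, Raphe and LConly. Punches were pooled by region and the sources used here do not say how many rats a pool held. P-values therefore measure the spread between these samples, which may be technical. The labels give no batch. In bulk punches, fewer cells of a type and less RNA per cell cannot be told apart.

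Several libraries went against their labels or stood apart. The FT libraries labelled ILC had a summed level of 3 noradrenaline neuron markers of 486 CPM (counts per 1000000 counts), against 1.9 to 4.7 CPM in the other ILC groups, and the FT libraries labelled LConly had 3.0 CPM, against 124 to 475 CPM in the other LConly groups. The 5 excitatory neuron markers summed to 49.3 CPM in FT ILC and 788 CPM in FT LConly, so these libraries carry each other's markers. In ILC the excitatory neuron markers summed to 631 to 688 CPM in the 4 treatments other than FT, against 312 CPM in Control. In Probiotics dorDG they summed to 413 CPM, against 806 to 889 CPM in the other dorDG groups, and Prox1, the granule cell marker, was at 29.6 CPM, against 68.0 to 88.9 CPM. The 7 choroid plexus markers summed to 17167 CPM in Probiotics LConly and 6287 CPM in Maltodextrin LConly, against 29.8 to 79.6 CPM in the other LConly groups. Levels of microglia, blood and immune markers are not given here, so no group, Control venDG and Control BLA included, is described by them. Of the Desipramine libraries, 4 held under 1000000 counts. Results over all regions that rest on these libraries are given with and without them where they change. Numbers of regions include these libraries, and the main region profiles leave out FT only.

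FT replicate 1 stood apart on many ribosomal protein genes. Whether it stood apart to the same extent on other genes was not counted. It was the lowest of the 5 FT replicates in all 10 regions for 29 of the 81 genes and the highest in all 10 regions for 10 genes, while no other replicate of any treatment was the lowest or highest in all 10 regions for any member. Rplp1, for example, averaged 227 CPM over the regions in FT replicate 1 and between 1157 and 1240 CPM in FT replicates 2 to 5. Rps27 averaged 596 CPM in FT replicate 1 and 307 to 328 CPM in the 4 others. Counts of FT members and log2 changes of named FT members are therefore given with and without this replicate; the lists of other genes, the numbers of regions and the test between regions use all 5 FT replicates.

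The DNA around the annotated starts of the mRNAs was searched for letters of the TOP class. RefSeq (build GRCr8) held promoters for 65 of the 81 members, in 66 entries, as Rps27a has 2 entries. The letters CTTTCC or CTCTTT are pieces of the pyrimidine run with which TOP mRNAs begin. They were searched on the strand that reads like the mRNA, from 10 bases before to 12 bases after the annotated start. Either stood there in 23 of the 66 entries (34.8%), against 1.49% of 33469 promoters of all genes. CTTTCC was found in 13 entries (19.7%, against 0.860% of all promoters) and CTCTTT in 14 (21.2%, against 0.735%), and 4 entries held both, which can overlap in CTCTTTCC. On the opposite strand 1 entry held CTTTCC and 0 held CTCTTT. In the whole window of 250 bases before to 50 after the start, CCGGAA, the core bound by ETS factors, was found on either strand in 50% of the entries, against 15.0% of all promoters, and TATAAA in 10.6%, against 14.2%. A match is a description of the letters and not of a bound site. It can lie before the annotated start, as in Rpl35 below, and so does not show that an mRNA begins with it. A gene without a match can still start with pyrimidines, as Rpl10a does below.

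The 30 bases around the start, 15 before and 15 from it on, are shown for 9 genes on which the comparisons turn, with a CTTTCC or CTCTTT on that strand in capitals. The first 5 were called lower under Desipramine, Rpl26 was called higher under Desipramine, Rps27 and Rpl9 were called lower under Probiotics, and Rps2 was called higher under Bupropion.
Rplp1, chr8:71290858-71290887, minus strand: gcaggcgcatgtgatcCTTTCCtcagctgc
Rpl28, chr1:78083518-78083547, minus strand: ccccgcccctagtgtctttCTTTCCgtctc
Rpl35, chr3:43165907-43165936, minus strand: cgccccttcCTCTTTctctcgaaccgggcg
Rpl36, chr9:1533765-1533794, plus strand: ctgtccggccgccatcggaaagctgcaggt
Rpl10a, chr20:6390518-6390547, plus strand: gaaaccttctgccttcttttccggttcccg
Rpl26, chr10:54109677-54109706, plus strand: ctcgtgtcaacttacagaaccggaagtcgc
Rps27, chr2:177964592-177964621, minus strand: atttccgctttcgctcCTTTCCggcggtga
Rpl9, chr14:43247575-43247604, plus strand: gacgaaggacgttctCTCTTTgccccatct
Rps2, chr10:14251833-14251862, plus strand: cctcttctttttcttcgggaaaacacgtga
Genes of both directions carried these letters. Of the members called higher under Desipramine, 14 of 31 with a promoter held either motif near the start, of those called lower 8 of 20, and of those not called 1 of 14. In Probiotics against Maltodextrin, 1 of 6 called higher, 16 of 38 called lower and 6 of 21 not called held either motif. A link between motif and call was not tested.

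Together the 81 genes took between 2.17% and 4.66% of the counts of a library, with a median of 3.32%. Averaged over the 10 regions, the share was 3.56% ± 0.265 in FT, 3.22% ± 0.0509 in Bupropion, 3.45% ± 0.0738 in Desipramine, 3.12% ± 0.0562 in Probiotics, 3.44% ± 0.0263 in Maltodextrin and 3.08% ± 0.0543 in Control (SD, n = 5 treatment replicates each). The FT replicates had 3.09%, 3.66%, 3.69%, 3.61% and 3.74%, and the first of these is the library set that stood apart. The Control share was not low in every region. In NACShell the means of the 5 treatments ran from 3.29% in Bupropion to 3.95% in Maltodextrin, below 4.45% ± 0.150 in Control. In venDG the Control share was 2.45% ± 0.0754 and in Raphe 2.49% ± 0.110, the lowest group of either region. Probiotics dorDG had 2.34% ± 0.126, against 3.54% ± 0.0333 in Maltodextrin dorDG, and Probiotics LConly had 2.49% ± 0.0246, against 2.95% ± 0.0967 in Maltodextrin LConly (SD, n = 5 libraries each).

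**Figure D1:**
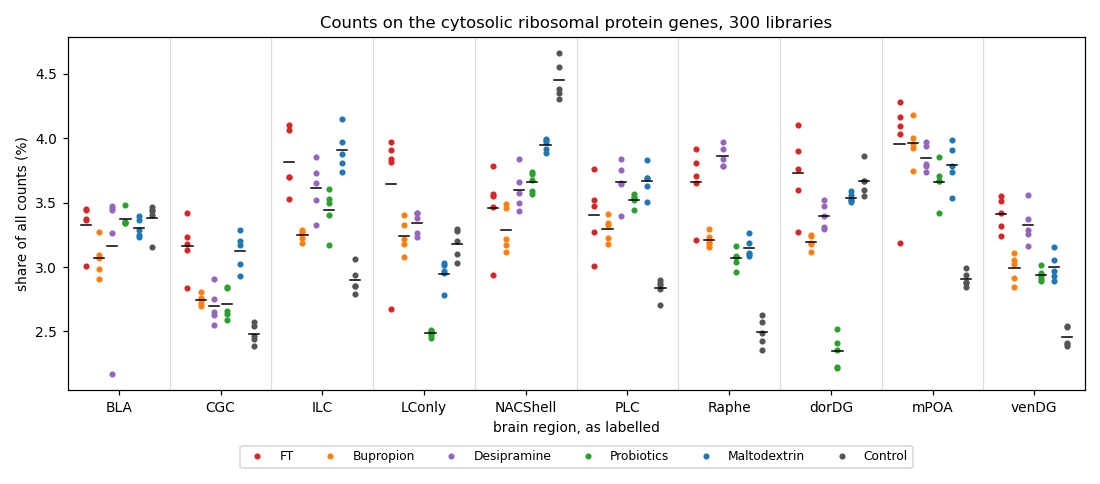
Share of all counts on the 81 cytosolic ribosomal protein genes in each of 300 libraries, in percent, by brain region and treatment; points are libraries and black bars group means of 5. Probiotics dorDG libraries lie at 2.22% to 2.52%, and Control NACShell libraries at 4.31% to 4.66%, above all other NACShell groups.

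Of the members, 69 averaged over 100 CPM, 76 over 10 CPM, and 5 were under 10 CPM: Rpl37a, Rplp2 and Rps9, which every ribosome carries, and Rpl3l and Rpl39l, copies used mainly in striated muscle and in the male germ line of mouse. Counts were found in every library for 77 members. Rat ribosomal protein genes have many near-identical processed copies, and the sources used here do not say how reads that match several copies were counted. Single levels are therefore uncertain and levels of different genes are not compared. The median member differed 3.18-fold between its highest and its lowest group.

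Over all regions, more ribosomal protein genes were called higher than lower under Desipramine, Maltodextrin, Bupropion and FT against Control, and more were called lower than higher under Probiotics against Maltodextrin. Each drug also had members that were called lower. Calls rest on the quasi-likelihood test of edgeR at a Benjamini-Hochberg adjusted p under 0.05, with all genes tested in the adjustment. The comparisons with Control share the Control libraries, and both comparisons with Maltodextrin share the Maltodextrin libraries. Log2 changes are relative to TMM scaling. Relative to total counts instead, the median over 11938 genes above 1 CPM was 0.15 in FT, 0.15 in Desipramine, -0.02 in Bupropion, 0.06 in Maltodextrin and 0.05 in Probiotics, and the members' medians were 0.25, 0.26, 0.077, 0.17 and -0.16 in that order. Between both scales, 21 members changed sign in FT, 7 in Desipramine, 5 in Bupropion, 6 in Maltodextrin and 3 in Probiotics.

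In Desipramine against Control, 39 members were higher (27.8% of all genes were called higher) and 24 lower (42.2% of all genes were called lower), with a median log2 change of 0.13, against -0.09 over all genes. Of the 49 large subunit genes, 23 were higher and 17 lower with a median of 0.13, and of the 32 small subunit genes 16 were higher and 7 lower with a median of 0.12. In CPM averaged over regions, 46 of the 78 members over 1 CPM had all 5 Desipramine replicates above all 5 Control replicates (46.5% of all genes over 1 CPM did so) and 16 had them below (19.2% of all genes). This scale is that of total counts, on which the median of all genes was itself 0.15.

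Among the large subunit genes that fell under Desipramine, Rpl36 had 31.4, 34.4, 36.8, 39.7 and 46.0 CPM in Desipramine and 71.1, 84.0, 83.2, 98.9 and 112.9 CPM in Control. All Desipramine replicates lay below all Control replicates. Its log2 change was -1.38 ± 0.198 (SE; adjusted p = 4.52e-07, edgeR) and it was called lower in 10 of 10 regions. Rpl10a, the protein of the L1 stalk where spent tRNA leaves, had 110, 112, 112, 120 and 127 CPM in Desipramine and 182, 195, 199, 197 and 203 CPM in Control. The groups did not overlap, the log2 change was -0.92 ± 0.094 (adjusted p = 8.99e-10, edgeR), and the gene was called lower in all 10 regions. Rpl15, which binds at the core of the large subunit, averaged 232 ± 11.8 CPM in Desipramine and 358 ± 26.2 CPM in Control and was also called lower in 10 of 10 regions.

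The stalk proteins Rplp0, Rplp1 and Rplp2 recruit elongation factors to the large subunit. The genes of Rplp0 and Rplp1 were called lower under Desipramine, and Rplp2, counted at a low level, was not. A difference between these genes was not tested. Rplp1 had 328, 355, 374, 412 and 526 CPM in Desipramine and 813, 986, 927, 938 and 950 CPM in Control. It fell in 9 of 10 regions, with a log2 change over all regions of -1.24 ± 0.229 (adjusted p = 2.20e-05, edgeR). Rplp0, the base of the stalk, averaged 400 ± 34.2 CPM in Desipramine and 551 ± 6.18 CPM in Control (SD, n = 5), with a log2 change of -0.59 and an adjusted p of 1.37e-05 (edgeR), and was called lower in 10 of 10 regions. Rplp2, with 5.88 ± 0.907 CPM in Desipramine and 5.31 ± 0.854 CPM in Control, was not called (log2 change -0.05), and its replicates overlapped. Without ILC and LConly, Rplp2 was called higher under Desipramine (log2 change 0.40, adjusted p = 0.0167, edgeR).

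The members that rose under Desipramine were of both subunits. Rpl30, which also binds its own transcript in yeast, had 421, 417, 399, 395 and 394 CPM in Desipramine and 229, 233, 223, 227 and 233 CPM in Control. The replicates were far apart, the log2 change was 0.69 ± 0.0267 (adjusted p = 1.26e-18, edgeR), and it was called higher in 9 of 10 regions. Rps27a, which is made as a fusion with ubiquitin, had 1161, 1175, 1106, 1085 and 1104 CPM in Desipramine and 670, 670, 671, 649 and 641 CPM in Control. Its log2 change was 0.68 ± 0.0394 (adjusted p = 9.53e-15, edgeR), and it was called higher in 9 of 10 regions. Rpl26, near the exit tunnel, averaged 956 ± 41.6 CPM in Desipramine and 577 ± 12.8 CPM in Control, with a log2 change of 0.63 (adjusted p = 5.41e-10, edgeR). Rpl36a was the next highest, at 491 ± 10.8 CPM in Desipramine and 304 ± 6.40 CPM in Control, with a log2 change of 0.58. Rps6, the substrate of S6 kinase, averaged 14.7 ± 0.942 CPM in Desipramine and 10.4 ± 0.273 CPM in Control (log2 change 0.32, adjusted p = 3.48e-05). Rps4x, encoded on the X chromosome, and Rpl10, which joins the large subunit late, were called higher with log2 changes of 0.28 and 0.16. Rpsa, also known as a laminin receptor, and Rps2 were not called, at 0.04 and -0.07. Without ILC and LConly, Rps2 was called higher (log2 change 0.17, adjusted p = 0.0232, edgeR).

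**Figure D2:**
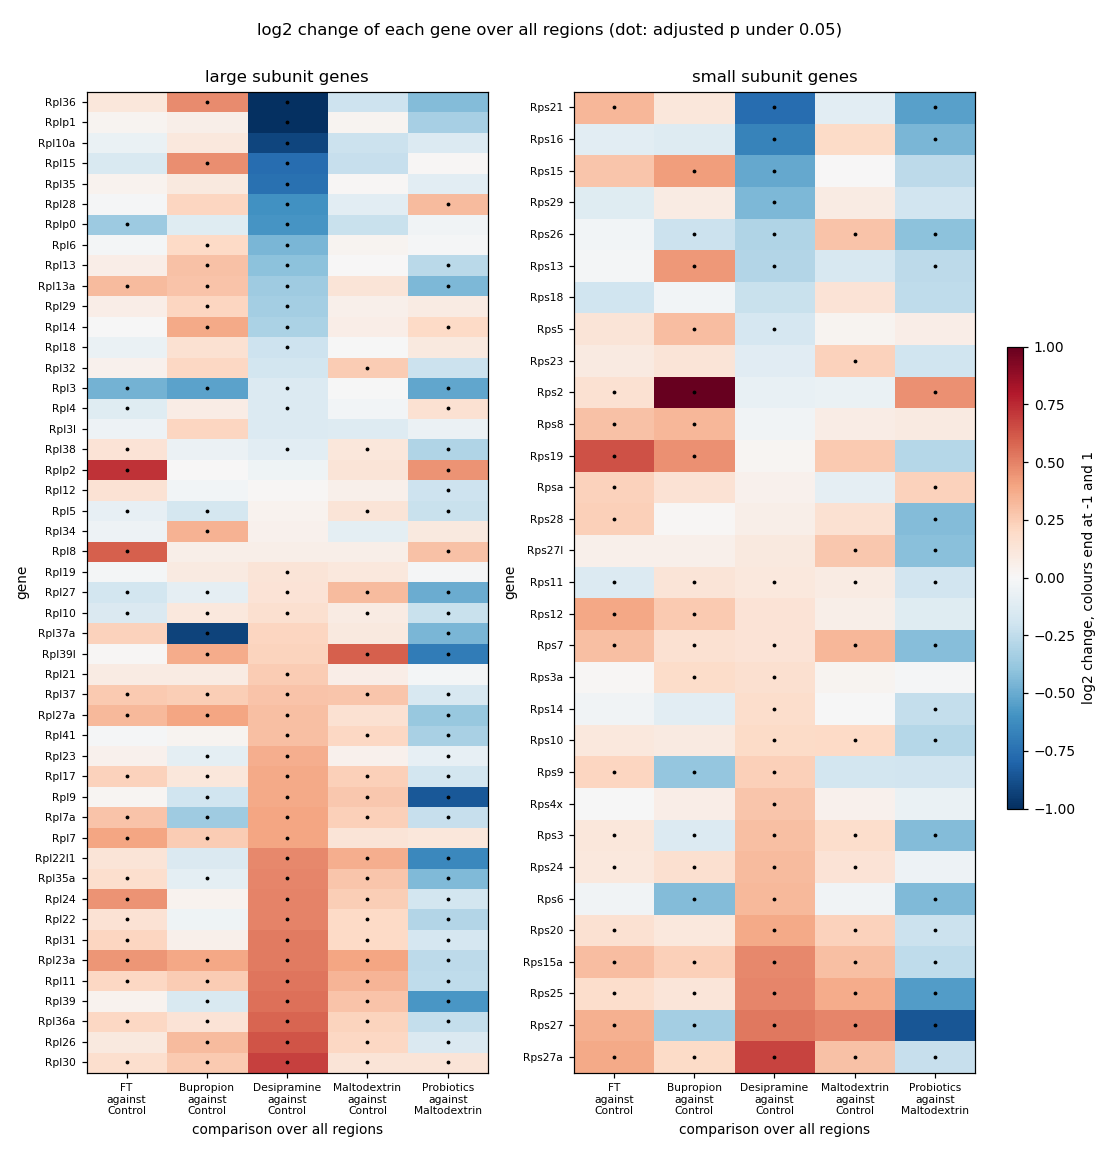
Log2 change of large and small subunit genes over all regions in 5 comparisons, sorted by the change under Desipramine; colour shows the change, with colours ending at -1 and 1, and a dot marks an adjusted p under 0.05. The Desipramine column runs from -1.38 (Rpl36) to 0.69 (Rpl30), and the Probiotics column is mostly below 0.

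In Bupropion against Control, 34 members were higher (22.3% of all genes were called higher) and 14 lower (35.7% of all genes were called lower), with a median log2 change of 0.11, against -0.07 over all genes. Of the large subunit genes 19 were higher and 9 lower, and of the small subunit genes 15 were higher and 5 lower. Rps2, at the mRNA entry channel of the small subunit, moved most. It had 219, 217, 193, 223 and 233 CPM in Bupropion and 103, 108, 105, 101 and 108 CPM in Control, without overlap. Its log2 change was 1.12 ± 0.0678 (adjusted p = 5.25e-14, edgeR), and it was called higher in 9 of 10 regions. In PLC it had 417, 268, 382, 364 and 354 CPM in Bupropion and 102, 85.9, 93.4, 83.0 and 99.0 CPM in Control, a log2 change of 2.04, and in ILC it averaged 390.0 CPM in Bupropion and 164 CPM in Control. In NACShell the log2 change was -0.02.

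Other members that rose under Bupropion were Rpl36 (123 ± 11.1 CPM in Bupropion and 90.04 ± 16.2 CPM in Control, log2 change 0.47), Rpl15 (486 ± 38.2 CPM in Bupropion and 358 ± 26.2 CPM in Control, 0.46) and Rps19 (29.1 ± 1.50 CPM in Bupropion and 21.96 ± 2.504 CPM in Control, 0.46). The Rpl36 replicates of the groups overlapped, with 107 to 136 CPM in Bupropion and 71.1 to 112.9 CPM in Control. Rpl3, at the peptidyl transferase centre, fell, with 522, 498, 501, 491 and 480 CPM in Bupropion and 742, 735, 719, 709 and 682 CPM in Control. Its groups did not overlap, its log2 change was -0.53 ± 0.0335 (adjusted p = 1.13e-13, edgeR), and it was called lower in 9 of 10 regions. Rps6 averaged 7.81 ± 0.651 CPM in Bupropion and 10.4 ± 0.273 CPM in Control (log2 change -0.43, adjusted p = 9.21e-07), the opposite side of Control from Desipramine. Rpl37a and Rps9 were also among the 4 lowest, at 0.357 and 2.62 CPM in Bupropion, against 0.660 and 3.45 CPM in Control. Rps27a rose by 0.19 and Rpl10 by 0.11 on the log2 scale. Rplp0, Rplp1, Rplp2, Rpsa and Rps4x were not called, between -0.12 and 0.15.

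In FT against Control, 34 members were higher (25.6% of all genes were called higher) and 8 lower (36.1% of all genes were called lower), with a median log2 change of 0.11, against -0.05 over all genes. Without FT replicate 1, 49 members were called higher (28.6% of all genes) and 8 lower (37.4% of all genes), and the median was 0.16. Of the large subunit genes 17 were higher and 7 lower with all replicates and 28 and 6 without that replicate, and of the small subunit genes 17 were higher and 1 lower with all and 21 and 2 without it. Rpl8, which lies beside the peptidyl transferase centre, had 89.9, 72.4, 75.9, 75.4 and 74.6 CPM in FT and 40.1, 44.5, 43.1, 46.6 and 49.1 CPM in Control. All FT replicates lay above all Control replicates, the log2 change was 0.60 ± 0.0600 (adjusted p = 7.33e-10, edgeR), and it was called higher in all 10 regions. These include ILC and LConly, where FT and Control libraries of the same label differ in region markers. Without FT replicate 1 the log2 change was 0.57. Rplp2 averaged 10.6 ± 2.96 CPM in FT and 5.31 ± 0.854 CPM in Control (log2 change 0.73, adjusted p = 5.48e-05), and its log2 change was 0.61 without FT replicate 1.

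Rpl3 had 661, 588, 586, 560 and 535 CPM in FT and 742, 735, 719, 709 and 682 CPM in Control, without overlap, and a log2 change of -0.47 ± 0.0335 (adjusted p = 4.80e-13, edgeR), or -0.49 without FT replicate 1. It was called lower in 9 of 10 regions, with ILC and LConly counted among the 10. Rps27a averaged 930 ± 59.1 CPM in FT and 660 ± 14.4 CPM in Control, a log2 change of 0.38 with all FT replicates and 0.43 without FT replicate 1. Rplp0 was at -0.36 with and -0.20 without FT replicate 1, and Rps19 at 0.64 and 0.44. Rplp1 changed its call: its log2 change was 0.03 (adjusted p = 0.928) with all FT replicates and 0.29 (adjusted p = 0.00068) without FT replicate 1. Rpl36 did so too, with 0.11 (adjusted p = 0.635) and 0.34 (adjusted p = 0.00555). Rps27l turned, with 0.05 and -0.07 (adjusted p = 0.0298 without the replicate). Rps27 was higher by 0.36 with and 0.17 without that replicate, and Rpsa by 0.23 and 0.38. Rpl24, at the bridge between the subunits, was called higher (0.45 with and 0.37 without that replicate), as was Rps2 (0.15 and 0.23). Rpl27 (-0.19 with and -0.20 without it) and Rpl10 (-0.14 and -0.11) were called lower, although Rpl10 averaged 461 ± 10.4 CPM in FT and 454 ± 12.5 CPM in Control on the scale of total counts. Rps4x and Rps6 were not called, at -0.01 and -0.04 with all replicates and at 0.03 each without FT replicate 1. Without ILC and LConly, whose FT libraries carry each other's markers, Rps4x was called higher (log2 change 0.12, adjusted p = 0.00199, edgeR).

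In Maltodextrin against Control, 36 members were higher (18.9% of all genes were called higher) and 1 lower (29.4% of all genes were called lower), with a median log2 change of 0.13, against -0.05 over all genes. Of the large subunit genes 22 were higher and 1 lower, and of the small subunit genes 14 were higher and 0 lower. Rps27, a zinc finger protein of the small subunit, had 387, 385, 381, 388 and 376 CPM in Maltodextrin and 264, 281, 265, 262 and 267 CPM in Control. The groups did not overlap, and the log2 change was 0.49 ± 0.0969 (adjusted p = 0.000157, edgeR). Rpl23a rose to 428 ± 7.81 CPM in Maltodextrin, against 319 ± 8.67 CPM in Control, a log2 change of 0.39. Rps25, which some viral internal entry sites need, averaged 468 ± 7.99 CPM in Maltodextrin and 352 ± 9.83 CPM in Control, a log2 change of 0.37. Rpl39l rose at a very low level, to 0.960 ± 0.151 CPM in Maltodextrin, against 0.612 ± 0.0953 CPM in Control, with a log2 change of 0.60. Rplp0, Rplp1, Rplp2, Rpsa, Rps2, Rps6 and Rps4x were not called under Maltodextrin, between -0.22 and 0.13, while Rps27a rose by 0.29 and Rpl10 by 0.08.

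In Probiotics against Maltodextrin, 8 members were higher (33.1% of all genes were called higher) and 45 lower (22.7% of all genes were called lower), with a median log2 change of -0.22, against 0.06 over all genes. Of the large subunit genes 6 were higher and 27 lower with a median of -0.18, and of the small subunit genes 2 were higher and 18 lower with a median of -0.25. Rps27 had 232, 219, 233, 215 and 233 CPM in Probiotics and 387, 385, 381, 388 and 376 CPM in Maltodextrin. All Probiotics replicates lay below all Maltodextrin replicates, the log2 change was -0.85 ± 0.0974 (adjusted p = 1.48e-08, edgeR), and the gene was called lower in 10 of 10 regions. Rpl9, near the factor-binding site of the large subunit, had 409, 383, 391, 373 and 389 CPM in Probiotics and 662, 654, 656, 665 and 655 CPM in Maltodextrin. It too did not overlap and was called lower in 10 of 10 regions, with a log2 change of -0.85 ± 0.0658 (adjusted p = 6.61e-12, edgeR). Rps25 (336 ± 11.8 CPM in Probiotics and 468 ± 7.99 CPM in Maltodextrin) and Rpl3 (541 ± 12.9 CPM in Probiotics and 750 ± 8.84 CPM in Maltodextrin) were also called lower in every region. Rps6 averaged 8.35 ± 0.404 CPM in Probiotics and 10.7 ± 0.378 CPM in Maltodextrin, a log2 change of -0.44.

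Of the members higher under Probiotics, Rps2 had 143, 141, 127, 130 and 162 CPM in Probiotics and 112, 105, 105, 104 and 106 CPM in Maltodextrin (log2 change 0.45, adjusted p = 1.42e-06, edgeR). The groups did not overlap, but the gene was called higher in 1 region only, venDG, with 303, 352, 193, 273 and 351 CPM in Probiotics and 111, 90.0, 81.6, 89.2 and 101.8 CPM in Maltodextrin. Rplp2 averaged 8.60 ± 0.536 CPM in Probiotics and 6.31 ± 1.30 CPM in Maltodextrin (log2 change 0.45), Rpl28 303 ± 4.86 CPM in Probiotics and 241 ± 4.997 CPM in Maltodextrin (0.32), and Rpl8 62.4 ± 7.59 CPM in Probiotics and 49.8 ± 2.55 CPM in Maltodextrin (0.30). Rpsa was called higher (0.23), and Rps27a (-0.23) and Rpl10 (-0.22) were called lower. In NACShell, mPOA, PLC, Raphe and CGC alone, Rps2 (0.13, adjusted p = 0.174), Rplp2 (0.24, adjusted p = 0.205), Rpl28 (0.16, adjusted p = 0.212), Rpsa (0.10, adjusted p = 0.445) and Rps6 (-0.11, adjusted p = 0.157) were not called by edgeR, and 1 member was called higher. Rplp0, Rplp1 and Rps4x were not called, at -0.04, -0.33 and -0.07. Without ILC, dorDG and venDG, the 3 regions with groups that stood apart in large to small subunit ratio, the median was -0.15 and 3 members were called higher. The shares of all genes called in these settings are not given.

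**Figure D3:**
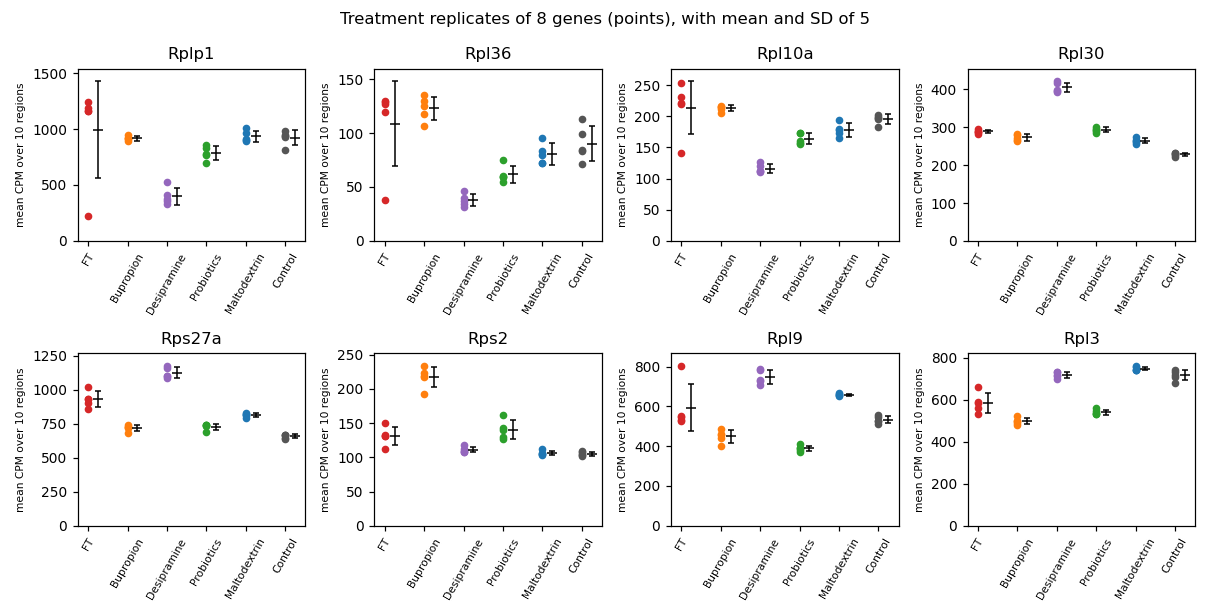
Mean CPM over the 10 regions of 8 members in the 5 treatment replicates of each group (points), with mean and SD of 5 beside them. Desipramine is lowest for Rplp1 (399), Rpl36 (37.7) and Rpl10a (116) and highest for Rpl30 (405) and Rps27a (1126), Bupropion is highest for Rps2 (217), and the low FT points of Rplp1, Rpl36 and Rpl10a are FT replicate 1.

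The paralogs Rpl22l1, Rps27l, Rpl39l and Rpl3l differed in level and in the comparisons in which they were called. Rpl22l1, the paralog of Rpl22, averaged 237 ± 50.5 CPM in FT, 174 ± 10.4 CPM in Bupropion, 294 ± 13.1 CPM in Desipramine, 175 ± 5.21 CPM in Probiotics, 256 ± 6.32 CPM in Maltodextrin and 196 ± 4.52 CPM in Control. Its log2 change was 0.48 in Desipramine and 0.36 in Maltodextrin against Control and -0.64 in Probiotics against Maltodextrin, all called, and it was called lower under Probiotics in 9 of 10 regions. Rpl22 itself changed by 0.50, 0.20 and -0.29 in those comparisons, all called. Rps27l, a paralog of Rps27 that p53 induces in human cells, was called in Maltodextrin against Control (0.27, 43.9 ± 1.86 CPM in Maltodextrin and 34.5 ± 0.927 CPM in Control) and in Probiotics against Maltodextrin (-0.42), the directions of Rps27. Rpl39l was called in Bupropion (0.37) and Maltodextrin (0.60) against Control and in Probiotics against Maltodextrin (-0.70), at means of 0.612 to 0.960 CPM. Rpl3l was called in no comparison and averaged 0.426 to 0.529 CPM.

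Other genes of the translation machinery were counted in the same fits. The lists were chosen with earlier results of these data known. Their counts stand beside the share of all genes called higher and lower, which was 25.6% and 36.1% in FT, 22.3% and 35.7% in Bupropion, 27.8% and 42.2% in Desipramine, 18.9% and 29.4% in Maltodextrin, and 33.1% and 22.7% in Probiotics against Maltodextrin. Of 23 tested genes for elongation factors and other TOP mRNAs, 7 were higher and 6 lower in FT (median log2 change 0.01), 12 and 4 in Bupropion (0.10), 9 and 9 in Desipramine (0.03), 3 and 1 in Maltodextrin (0.03), all against Control, and 3 and 9 in Probiotics against Maltodextrin (-0.06). Eef1a1, the factor that brings tRNA to the ribosome, was called lower in FT (-0.57), in Desipramine (-0.29) and in Probiotics against Maltodextrin (-0.40), and Eef1d, a part of its exchange factor, was called higher in Bupropion (0.39) and in Probiotics (0.38). Of 28 ribosome biogenesis genes, 5 were higher and 13 lower in FT, 10 and 10 in Bupropion, 4 and 13 in Desipramine, 3 and 10 in Maltodextrin, and 8 and 8 in Probiotics. Nop56, of the box C/D particles that modify ribosomal RNA, fell by 0.63 in FT, 0.17 in Bupropion, 0.75 in Desipramine and 0.28 in Maltodextrin. Of 19 mTORC1, S6 kinase and Myc genes, 5 were higher and 6 lower in FT, 5 and 6 in Bupropion, 6 and 8 in Desipramine, 1 and 8 in Maltodextrin, and 9 and 5 in Probiotics. Eif4ebp2, an inhibitor of cap-dependent translation, was higher in FT (1.10), Bupropion (0.39), Desipramine (0.50) and Maltodextrin (0.14) against Control and in Probiotics against Maltodextrin (0.62). Rheb, the activator of mTORC1, was lower in FT (-0.61), Bupropion (-0.32), Desipramine (-0.64) and Maltodextrin (-0.56) against Control.

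Genes of 3 other large complexes were counted too, against the same shares. In FT, Bupropion, Desipramine and Maltodextrin all genes together were also called lower more often than higher. Of 69 mitochondrial ribosomal protein genes tested, 9 were higher and 37 lower in FT, 25 and 21 in Bupropion, 8 and 44 in Desipramine, 3 and 34 in Maltodextrin, and 24 and 14 in Probiotics against Maltodextrin. Of 78 oxidative phosphorylation genes, 3 were higher and 52 lower in FT, 19 and 24 in Bupropion, 10 and 54 in Desipramine, 11 and 37 in Maltodextrin, and 10 and 37 in Probiotics. Of 39 proteasome genes, 4 were higher and 33 lower in FT, 9 and 16 in Bupropion, 5 and 29 in Desipramine, 1 and 27 in Maltodextrin, and 10 and 11 in Probiotics. In Desipramine the median log2 change was -0.24 for the mitochondrial ribosome, -0.38 for oxidative phosphorylation and -0.30 for the proteasome, beside 0.13 for the cytosolic ribosome and -0.09 over all genes.

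By region, the members were low relative to Control in NACShell. There 60 of 78 tested members were lower and 1 higher in FT (21.1% of all genes were called lower and 25.5% higher; without FT replicate 1, 56 lower and 2 higher, 22.6% and 27%), 58 lower and 0 higher in Bupropion (23.6% and 24.4%), 52 lower and 3 higher in Desipramine (21.3% and 20%), and 60 lower and 2 higher in Maltodextrin (24.8% and 21.6%), all against Control, with median log2 changes of -0.41, -0.48, -0.38 and -0.35. These 4 comparisons share 5 Control NACShell libraries, whose share of counts was the highest of all groups. In the 5 other treatments of NACShell, group means of summed markers were 16303 to 28781 CPM for 7 oligodendrocyte markers, against 21364 to 22846 CPM in the Control libraries. They were 182 to 364 CPM for 5 excitatory neuron markers, against 292 to 312 CPM in Control, and 141 to 198 CPM for 6 endothelial and mural markers, against 126 to 140 CPM in Control; the part of these levels in the result was not tested. Without NACShell, 9 members were lower in Bupropion over all regions in place of 14, and the medians over all regions were 0.17 in Bupropion and 0.18 in Desipramine. The share of all genes called lower in that setting is not given.

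In mPOA the members were high relative to Control. In FT 50 of 80 were higher and 1 lower (25.5% of all genes were called higher and 23.3% lower; without FT replicate 1, 62 and 1, 25% and 25.4%), in Bupropion 64 and 1 (20.7% and 18.6%), in Desipramine 40 and 18 (32.2% and 32.5%), and in Maltodextrin 43 and 0 (18.9% and 19%). The endothelial and mural markers summed to 201 to 370 CPM in the other mPOA groups and to 388 CPM in Control mPOA, the oligodendrocyte markers to 28477 to 53294 CPM in the others and 55351 CPM in Control, and the part of these levels in the result was not tested. In PLC, 66 of 80 members were higher and 0 lower in Maltodextrin (22.8% and 26.3%), with a median log2 change of 0.42, and 47 were higher and 7 lower in Bupropion (22.8% and 24.3%). In Raphe, 48 of 79 were higher and 14 lower in Desipramine (28.8% and 31.1%) and 45 higher and 0 lower in Maltodextrin (15.4% and 18%), and Rpl30 rose by 1.32 under Desipramine. In venDG, 44 of 79 were higher and 0 lower in Maltodextrin (12.3% and 10.3%). In BLA few members were called under Maltodextrin, 5 higher (12.1%) and 2 lower (16.5%). Without Control replicate 5, 3 were higher, and the share of all genes in that setting is not given. The part of microglia, blood and immune markers in the venDG and BLA results was not tested.

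In LConly, 32 of 80 members were lower and 0 higher in Maltodextrin against Control (23.6% of all genes were called lower and 22.2% higher). Without Maltodextrin replicate 1, 20 were lower (22.3% of all genes) and 1 higher (20.6%), so that the share of members called lower was close to that of all genes. In LConly 37 were lower and 1 higher in Probiotics against Maltodextrin (20.8% and 21.1%). Choroid plexus markers summed to 17167 CPM in Probiotics LConly and 6287 CPM in Maltodextrin LConly, against 45.3 CPM in Control LConly, and their part in the result was not tested. In dorDG, 1 of 79 members was higher and 0 lower in Maltodextrin against Control (0.612% of all genes were called higher and 0.327% lower). In the same region 58 were lower and 9 higher in Probiotics against Maltodextrin (35.4% of all genes were called lower and 33.3% higher), with a median log2 change of -0.87.

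Single members of Probiotics dorDG moved far. Rps27 had 74.5, 87.0, 71.9, 67.0 and 78.9 CPM in Probiotics and 428, 371, 372, 409 and 398 CPM in Maltodextrin, a log2 change of -2.29. Rpl9 had 179.6, 148, 148, 140.4 and 138 CPM in Probiotics and 711, 677, 710.0, 759 and 716 CPM in Maltodextrin, a log2 change of -2.16. Neither gene's groups overlapped. Rpl7 rose by 0.91 and Rpl28 by 0.71. These genes of dorDG were chosen after their values were seen. Probiotics dorDG is the group in which Prox1 was at 29.6 CPM and excitatory neuron markers at 413 CPM; their part in these changes was not tested.

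**Figure D4:**
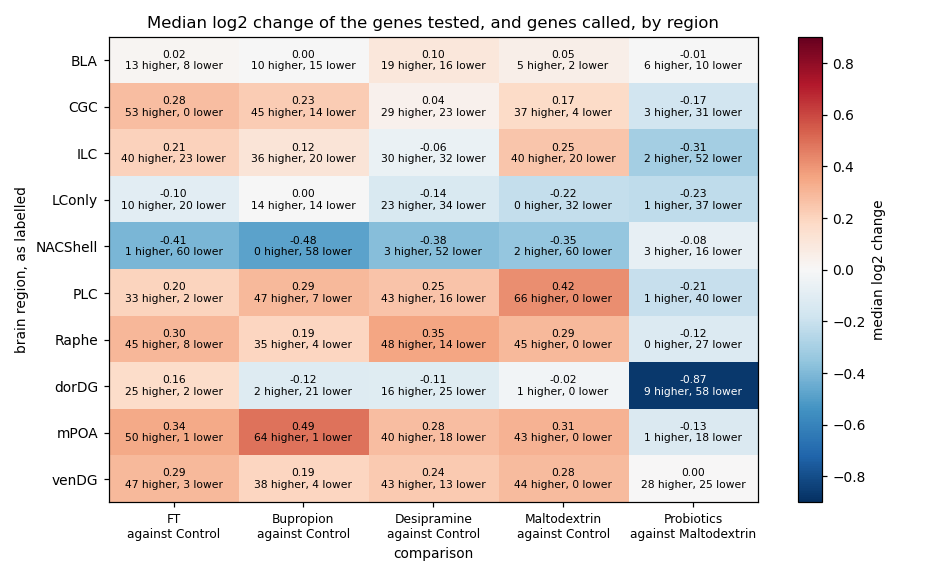
Median log2 change of the ribosomal protein genes tested in each of 10 brain regions (rows) and 5 comparisons (columns), with the numbers of genes called higher and lower at an adjusted p under 0.05. NACShell is below 0 in the 4 comparisons with Control (-0.35 to -0.48), mPOA is above 0 in the same 4 (0.28 to 0.49), and Probiotics dorDG has the lowest median (-0.87).

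A test of whether the change of a gene varied between regions was passed by 77 of 81 members in FT (92.6% of all genes passed), 79 of 81 in Bupropion (90.2%), 77 of 81 in Desipramine (87.2%), 77 of 80 in Maltodextrin (89.8%) and 79 of 80 in Probiotics against Maltodextrin (82.3%). The share of members that passed was 95.1% in FT, 97.5% in Bupropion, 95.1% in Desipramine, 96.3% in Maltodextrin and 98.8% in Probiotics. Most of all genes passed as well, and in FT the shares were close. The difference between these shares was not tested. Of the 81 members, 69 averaged over 100 CPM, and genes of like level were not compared. The FT test includes the ILC and LConly libraries that carry each other's markers.

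Without FT, each region was compared with the 9 others over the remaining treatments. CGC was low for nearly all members: 75 of 80 were lower (38.1% of all genes were called lower) and 1, Rps14, was higher (33.6% of all genes were called higher), with a median log2 difference of -0.33. Its share of counts was 2.75% ± 0.235, the lowest of the regions, against 3.79% ± 0.417 in NACShell (SD, 25 libraries each). In NACShell 50 members were higher (31.5%) and 2, Rpl10a (-0.19) and Rpl5 (-0.11), lower (32%), led by Rps27 (0.62) and Rps19 (0.57). In Raphe 47 were higher (37%) and 7 lower (40.4%), with Rps28 (0.60) and Rps6 (0.55) highest and Rplp2 (-0.72) and Rps19 (-0.43) lowest. In PLC 40 were higher (32.9%) and 6 lower (36.5%), with Rps19 (0.66) and Rplp2 (0.62) highest. In BLA 39 were lower (30.8%) and 5 higher (37.2%), and the 2 lowest were again Rplp2 (-1.08) and Rps19 (-0.87). In dorDG 45 were lower (36.6%) and 13 higher (38%), with Rpl7 (0.41) and Rpl5 (0.30) highest. This profile includes Probiotics dorDG, the group with low Prox1. Relative to the median over members, Rpl7 (1.62) and Rpl5 (1.14) were farthest from their own means in that group. The profile of Control libraries alone, given below, leaves that group out. In mPOA 34 were higher (37.4%) and 9 lower (36.1%), with Rps27l (0.59) and Rpl39l (0.57) highest and Rpl29 (-0.40) lowest. With Control libraries alone, CGC and BLA again had more members lower than higher and NACShell more higher than lower. CGC then had 2 members higher (34.2% of all genes) and 70 lower (31.6%), NACShell 69 higher (30.4%) and 0 lower (26%), and BLA 9 higher (36.4%) and 40 lower (34.9%). In PLC, Raphe, dorDG, mPOA and LConly the balance turned. PLC had 8 higher (32.7%) and 40 lower (32.2%), and Raphe 20 higher (34.3%) and 32 lower (33.9%). dorDG had 44 higher (33.2%) and 10 lower (31.4%), and mPOA 9 higher (34.5%) and 36 lower (34%). LConly went from 23 higher (36.9%) and 25 lower (39.6%) without FT to 47 higher (35.9%) and 9 lower (36%) in Control alone. venDG went from 11 higher (34.3%) and 13 lower (33.9%) to 4 higher (34.3%) and 55 lower (31.1%). ILC went from 26 higher (35.9%) and 14 lower (39.2%) to 35 higher (37.7%) and 32 lower (42.3%).

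The ratio of the summed large subunit CPM to the summed small subunit CPM varied little in most groups. On the log2 scale it ran from 0.377 to 1.24 over libraries, with a median of 0.621. By treatment it was 0.583 ± 0.0092 in FT, 0.668 ± 0.012 in Bupropion, 0.581 ± 0.014 in Desipramine, 0.716 ± 0.011 in Probiotics, 0.628 ± 0.0086 in Maltodextrin and 0.680 ± 0.0075 in Control (SD, n = 5). Of the 60 group means, 57 lay between 0.543 in FT Raphe and 0.763 in Bupropion CGC. The 3 others were Probiotics dorDG at 1.16 ± 0.063, Control ILC at 1.01 ± 0.0278 and Probiotics venDG at 0.897 ± 0.0258.

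Probiotics dorDG and Control ILC are also groups in which the excitatory neuron markers were low, at 413 and 312 CPM; their part in these ratios was not tested. Without ILC, dorDG and venDG, the ratio was 0.639 in Probiotics and 0.650 in Control, so that the order by treatment changed: Bupropion was then highest at 0.670.

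**Figure D5:**
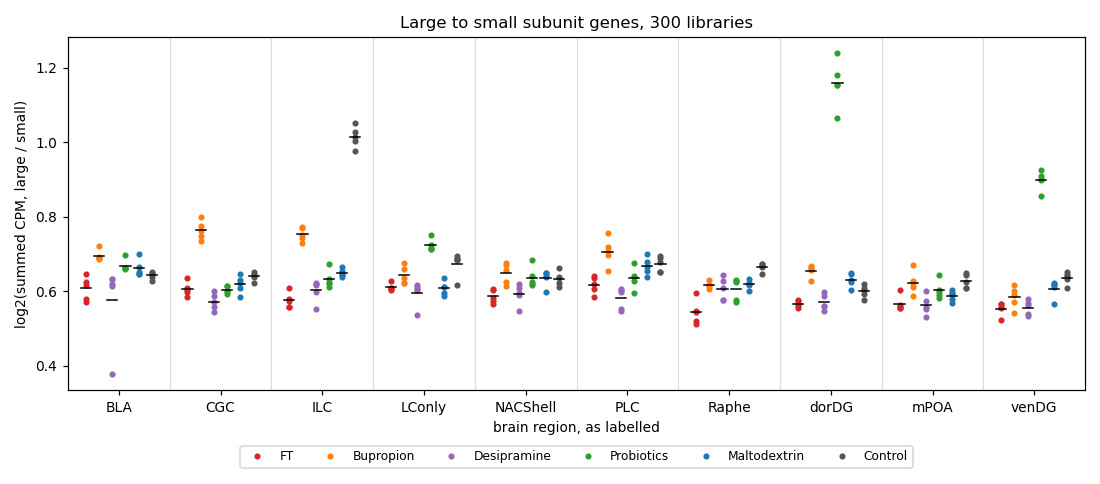
Log2 ratio of the summed CPM of 49 large to 32 small subunit genes in each of 300 libraries, by brain region and treatment; points are libraries and black bars group means of 5. Probiotics dorDG (1.16), Control ILC (1.01) and Probiotics venDG (0.897) stand above the other 57 groups, whose means end at 0.763.

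Single members that left the common pattern were found by taking out, in each of the 60 groups, the median over members and then each gene's mean. The SD of what was left had a median of 0.27 on the log2 scale. It was among the highest for Rplp2 (0.67), Rpl36 (0.64), Rplp1 (0.58), Rps19 (0.50) and Rps27 (0.48). Rplp2 was farthest in Probiotics dorDG (1.44), Rpl36 in Desipramine dorDG (-1.81), Rplp1 in Desipramine LConly (-1.76), Rps19 in Bupropion Raphe (-1.05) and Rps27 in Probiotics dorDG (-1.27). Across the 60 groups, the 76 members above 10 CPM were also correlated with the median of the others; the groups share regions and treatments, so this is a description. The median r was 0.64, 35 members were over 0.7, and Rps10 was highest at 0.91. Of them 5 were under 0.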

How the data were processed

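Per the labels' protocols, punches of frozen brain sections were pooled by region, and stranded total RNA libraries (Illumina TruSeq) were sequenced as paired ends. Per the submitters' processing notes, the authors used FastQC, STAR, rn6 and HTSeq; the sources used here do not give versions, the strand setting or the handling of reads with several matches. The deposited table holds raw counts per gene symbol, checked to be whole numbers, and 0 of its columns lacked a sample. CPM here are counts per 1000000 counts of a library.

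For each region, the 30 libraries were fitted in edgeR 4.0.16 (R 4.3.3) with TMM factors, filterByExpr and the quasi-likelihood F test. The fit over all regions used the sum of a treatment replicate's 10 libraries. Benjamini-Hochberg adjustment covered all genes tested, at a threshold of 0.05. Region profiles left out FT. The fits were tested on simulated data. DESeq2 1.42.0 and limma 3.58.1 were alternatives. Group values on the log2 scale used a pseudocount of 0.5 CPM.

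The members and all lists were chosen with earlier results of these data known. Named genes were, per comparison, the 4 called members with the highest and the 4 with the lowest log2 change, the 6 members farthest from the common pattern, 9 members named in every comparison, the paralogs, and up to 3 called genes per other list. Rpl15 under Desipramine, Rps25 and Rpl3 under Probiotics, Rpl22, and the genes named in dorDG were chosen after their values were seen. Some members enter every count, median and sum, while their own results are not reported here.

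Replicate numbers are in the labels. Same-numbered replicates of 2 treatments deviated together with a correlation under 0.1 in every pair, so the numbers were not used as a block between treatments. Within a treatment the number joined a replicate's regions, in the sum over regions and as a term in the fits across regions. All 600 pairs of libraries within groups differed by more than sampling noise, with a lowest chi-square per degree of freedom of 1.34. No library was left out or relabelled.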

Additional observations from a re-analysis of the deposited data

Results flagged for a closer look

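In groups of 5 replicates, 44 of 306 groups of values had a replicate farther from the others than Dixon's 95% critical value for the gap over the range allows; chance flags about 1 in 20 groups. FT replicate 1 lay below FT replicates 2 to 5, in mean CPM over the regions, for Rpl15 (196 CPM, against 386 to 434 CPM), Rpl26 (526 CPM, against 707 to 733 CPM), Rpl28 (161 CPM, against 299 to 319 CPM) and Rpl36 (38.3 CPM, against 120.0 to 129 CPM). It also lay below them for Rpl36a (324 CPM, against 393 to 420.0 CPM), Rplp0 (277 CPM, against 506 to 537 CPM), Rplp1 (227 CPM, against 1157 to 1239.5 CPM) and Rpsa (262 CPM, against 453 to 491 CPM). FT replicate 1 lay above the 4 others for Rpl22l1 (325 CPM, against 199.6 to 228 CPM), Rpl23a (596 CPM, against 438 to 464 CPM), Rpl24 (587 CPM, against 412 to 433 CPM), Rpl8 (89.9 CPM, against 72.4 to 75.9 CPM) and Rpl9 (802 CPM, against 528 to 551 CPM). It also lay above them for Rps19 (62.3 CPM, against 31.6 to 35.6 CPM), Rps25 (517 CPM, against 415 to 422 CPM), Rps27 (596 CPM, against 307 to 328 CPM) and Rps27l (59.3 CPM, against 34.7 to 37.6 CPM). In the other treatments the replicates apart were Rpl36 in Probiotics replicate 5 (75.2 CPM, against 54.6 to 59.8 CPM), Rpl37a in Bupropion replicate 1 (0.493 CPM, against 0.307 to 0.357 CPM), Rplp2 in Control replicate 5 (6.79 CPM, against 4.59 to 5.14 CPM), Rps19 in Desipramine replicate 4 (33 CPM, against 23 to 25.7 CPM) and Rps19 in Probiotics replicate 5 (31.2 CPM, against 18.6 to 22.1 CPM). The others were Rps2 in Maltodextrin replicate 1 (112 CPM, against 104 to 106 CPM), Rps27 in Control replicate 2 (281 CPM, against 262 to 267 CPM), Rps27a in Probiotics replicate 2 (690.5 CPM, against 735 to 745 CPM) and Rps27l in Probiotics replicate 5 (31.9 CPM, against 34.4 to 34.9 CPM).

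For the share of counts on the members, the libraries apart were FT BLA replicate 1 (3.01%, against 3.36% to 3.45%), Desipramine BLA replicate 3 (2.17%, against 3.26% to 3.48%), Probiotics BLA replicate 5 (3.48%, against 3.34% to 3.35%), Control BLA replicate 5 (3.15%, against 3.4% to 3.47%), FT LConly replicate 1 (2.68%, against 3.81% to 3.97%) and FT mPOA replicate 1 (3.19%, against 4.03% to 4.29%). For the log2 ratio of large to small subunit genes, they were Bupropion BLA replicate 1 (0.72, against 0.685 to 0.69), Desipramine BLA replicate 3 (0.377, against 0.615 to 0.633), Probiotics BLA replicate 4 (0.696, against 0.659 to 0.662), FT LConly replicate 2 (0.626, against 0.604 to 0.608), Desipramine LConly replicate 1 (0.536, against 0.604 to 0.616) and Probiotics LConly replicate 5 (0.75, against 0.712 to 0.723). The others were Control LConly replicate 5 (0.616, against 0.684 to 0.693), Maltodextrin NACShell replicate 2 (0.598, against 0.637 to 0.65), Bupropion dorDG replicate 4 (0.626, against 0.657 to 0.668), FT mPOA replicate 1 (0.602, against 0.554 to 0.562), FT venDG replicate 3 (0.521, against 0.554 to 0.566) and Maltodextrin venDG replicate 1 (0.565, against 0.61 to 0.621).

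The change of a member differed between the 10 regions, in a test of that difference itself at an adjusted p under 0.05, for 77 of 81 members in FT (92.6% of all genes), 79 of 81 in Bupropion (90.2%), 77 of 81 in Desipramine (87.2%) and 77 of 80 in Maltodextrin (89.8%), each against Control, and 79 of 80 in Probiotics against Maltodextrin (82.3%).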

How the results depend on the processing

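Repeats of named members under other settings kept direction and side of the threshold in 1795 cases, lost the call in 66, gained one in 54 and turned sign in 59. The shares of all genes called are not given for the settings of this section. A count of members that moved can therefore not be told from a change over all genes. Members lower in FT numbered 5, in place of 8, without ILC and LConly and with only the groups compared. They also numbered 5 in NACShell, mPOA, PLC, Raphe and CGC alone. Those are called the 5 regions below and include NACShell, where the Control share of counts was high. In Bupropion the median log2 change was 0.15 without ILC and LConly, 0.19 in the 5 regions, 0.17 without NACShell and 0.14 without ILC, dorDG and venDG, and 9 members were lower without NACShell. In Desipramine the median was 0.19, 0.18 and 0.18 in the first 3 of these settings, in Maltodextrin 0.17 and 0.18 in the first and second. Members lower in Maltodextrin numbered 3 with RLE size factors, 2 with DESeq2, 3 with the replicate block, 0 with limma on region means, 0 without ILC and LConly and 10 with only the groups compared, against 1 in edgeR. In Probiotics against Maltodextrin, members higher numbered 1 in the 5 regions and 3 without ILC, dorDG and venDG, with medians of -0.16 and -0.15. On the total-count scale the medians were 0.25 in FT, 0.077 in Bupropion, 0.26 in Desipramine, 0.17 in Maltodextrin and -0.16 in Probiotics. The settings without NACShell, without ILC, dorDG and venDG, and the total-count scale were chosen after seeing the data.

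Replicates of the same number in 2 treatments did not deviate together, so the number gives no pairing between treatments; within FT, replicate 1 stood apart in all 10 regions. With the replicate block, 36 members were higher and 8 lower in FT, 34 and 15 in Bupropion, 40 and 24 in Desipramine, 36 and 3 in Maltodextrin, and 8 and 47 in Probiotics against Maltodextrin.

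With only Control libraries, members higher than in the other 9 regions numbered 9 in BLA, 2 in CGC, 47 in LConly, 8 in PLC, 20 in Raphe, 44 in dorDG, 9 in mPOA and 4 in venDG, and members lower 32 in ILC, 9 in LConly, 0 in NACShell, 40 in PLC, 32 in Raphe, 10 in dorDG, 36 in mPOA and 55 in venDG. With FT included, 5 were lower in ILC and 20 in venDG, and with no filter 8 in ILC and 3 in PLC. The log2 ratio of large to small subunit genes without members under 10 CPM and the 3 of highest CPM was 0.526 in FT, 0.610 in Bupropion, 0.512 in Desipramine, 0.652 in Probiotics, 0.559 in Maltodextrin and 0.635 in Control. In the 5 regions it was 0.616 in Probiotics and 0.647 in Control, and without ILC, dorDG and venDG 0.639 and 0.650.

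Signs of named members turned in these settings, and the cause was not tested. In FT, Rps4x was 0.0042 with RLE size factors, 0.021 with limma, 0.12 without ILC and LConly, 0.072 in the 5 regions, 0.069 without NACShell and 0.036 without ILC, dorDG and venDG; Rplp1 was -0.029 with the replicate block, -0.19 with limma, -0.076 without ILC and LConly, -0.058 in the 5 regions and -0.056 without ILC, dorDG and venDG; Rpl36 was -0.024 with limma. In Bupropion, Rplp2 was -0.0052 with RLE size factors and Rpl3l -0.10 in the 5 regions. In Desipramine, Rps19 was -0.010 with RLE size factors and -0.000221 with only the groups compared, Rplp2 was 0.0037 with limma, 0.40 without ILC and LConly, 0.49 in the 5 regions and 0.29 without ILC, dorDG and venDG, and Rps2 was 0.17 without ILC and LConly and 0.12 in the 5 regions. In Maltodextrin, Rplp1 was -0.019 without ILC and LConly and -0.057 without ILC, dorDG and venDG, and Rps2 was 0.14 without ILC and LConly, 0.14 in the 5 regions and 0.049 without ILC, dorDG and venDG. In Probiotics against Maltodextrin, Rpl3l was 0.00032 without ILC and LConly, and without ILC, dorDG and venDG Rplp0 was 0.0046. Among these values, the ones called by edgeR were all higher. They were Rps4x in FT without ILC and LConly (adjusted p = 0.00199) and Rps2 in Desipramine without ILC and LConly (adjusted p = 0.0232). Rplp2 in Desipramine was called without ILC and LConly (adjusted p = 0.0167) and in the 5 regions (adjusted p = 0.00958).

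Leaving out each replicate in turn gave 29 to 49 members higher in FT, medians of 0.074 to 0.13 in Desipramine and 0.083 to 0.13 in Maltodextrin, 1 to 3 members lower in Maltodextrin, 3 to 6 higher in BLA, 0 to 1 higher in CGC, 5 to 11 lower in ILC and 3 to 5 lower in PLC. Among members whose sign turned, log2 changes in FT ran from -0.075 to 0.095 for Rps27l, -0.029 to 0.032 for Rps4x, -0.089 to 0.032 for Rps6, -0.058 to 0.29 for Rplp1 and -0.14 to 0.14 for Rpl3l. They ran from -0.058 to 0.097 for Rplp2 in Bupropion, and in Desipramine from -0.12 to 0.0095 for Rplp2, -0.10 to 0.095 for Rps19 and -0.0055 to 0.066 for Rpsa. They ran from -0.022 to 0.046 for Rplp1 in Maltodextrin and from -0.17 to 0.030 for Rpl3l in Probiotics. Depth limits the members under 1 CPM, Rpl37a, Rpl39l and Rpl3l.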
